A study of Mus musculus with 21 samples.

Results

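DNA replication genes encode the proteins that mark replication origins, load and start the replicative helicase, copy the DNA at the fork and supply its nucleotides. The set described here held 51 genes, listed by function and not by their values, and 50 of them had a probe set annotated to that gene alone, out of 18194 genes measured. Chaf1a was the listed gene without one. Where a gene had several probe sets, the one brightest on average over all arrays stood for it. The set was described in sorted bone marrow cells with and without Dot1l, the histone methyltransferase that acts on a lysine in the core of histone H3.

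The study placed 21 samples on arrays in 4 groups. GMP-Dot (n = 4) and GMP-Control (n = 5) were granulocyte-macrophage progenitors, the committed precursors of neutrophils and monocytes. LSK-Dot (n = 6) and LSK-Control (n = 6) were lineage-negative cells positive for Sca-1 and Kit, the fraction that holds stem and multipotent progenitor cells. The Dot groups carried Mx-Cre and Dot1l fl/fl alleles, both of which were deleted, and the Control groups carried wild-type Dot1l alleles and Mx-Cre, so that the transgene was present in every group. All mice were on a C57/BL6 background and received PIPC, the inducer of the interferon-responsive Mx promoter that drives Cre. That promoter is not restricted to blood cells. Neither the age of the mice nor the time between injection and sorting is stated in the labels. The labels give a K number to each array but do not say that it marks an animal, so the p-values rest on the spread among these arrays, which may be technical in part.

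Replication begins in G1, when the origin recognition complex (Orc1 to Orc6) binds origins and Cdc6 and Cdt1 load the MCM helicase (Mcm2 to Mcm7). Cdc7 with its activator Dbf4, together with Cdc45, the GINS complex and Mcm10, then starts the helicase at the entry into S phase. DNA polymerase alpha and primase lay primers, polymerases delta and epsilon extend them behind the clamp Pcna, and ribonucleotide reductase (Rrm1, Rrm2) makes the deoxynucleotides. Many of these genes are known targets of E2F factors, which raise their transcription at the transition into S phase. Most stem cells in the bone marrow rest outside the cell cycle, while multipotent progenitors and GMP divide often.

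The promoters of the members were searched because several members are known E2F targets and because transcription of the set is known to follow the cell cycle. The search covered 250 bases before to 50 bases after each annotated start in RefSeq, GRCm38.p6, on both strands, for the E2F octamers TTTCCCGC, TTTCGCGC, TTTGCCGC and TTTGGCGC. Of the measured members, 43 were in the table, and 16 of those (37.2%) held an octamer, against 704 of 27025 genes (2.60%). CCAAT was present in 24 of the 43 (55.8%) and in 41.1% of all genes. The CHR hexamers TTTGAA and TTCGAA were present in 9 (20.9%) and in 21.7% of all genes. Overlapping matches were allowed. A match is a description of letters and not a site of binding, and no match says only that these letters are not in this window. The 6 members whose first octamer lay farthest upstream of the start are shown with 25 bases on either side, 5′ to 3′ on the gene's strand, with the octamers in capitals. They include 4 genes of licensing and the helicase, the catalytic subunit of polymerase alpha, and Uhrf1, which brings maintenance DNA methylation to the fork.
Cdc6: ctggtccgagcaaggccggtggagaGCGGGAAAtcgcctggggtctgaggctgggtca
Mcm5: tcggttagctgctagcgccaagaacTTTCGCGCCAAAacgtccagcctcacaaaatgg
Mcm6: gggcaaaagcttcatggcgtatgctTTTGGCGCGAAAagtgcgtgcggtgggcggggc
Mcm7: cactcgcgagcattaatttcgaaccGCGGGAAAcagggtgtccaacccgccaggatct
Pola1: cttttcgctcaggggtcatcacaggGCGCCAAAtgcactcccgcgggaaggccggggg
Uhrf1: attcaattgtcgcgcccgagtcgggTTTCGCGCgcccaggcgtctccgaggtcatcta

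The Cdc6 window lies on the plus strand at chr11:98907988-98908045, with its octamer at -138 from the start. The Mcm5 window lies on the plus strand at chr8:75109331-75109388, with 2 overlapping octamers from -153. The Mcm6 window lies on the minus strand at chr1:128359783-128359840, with 2 overlapping octamers from -110, and the Mcm7 window on the minus strand at chr5:138172016-138172073, with its first octamer at -165. The whole promoters held 3 octamers for Mcm6 and 2 for Mcm7, so that not all of them are shown. The Pola1 window lies on the minus strand at chrX:93632261-93632318, with its octamer at -138, and the Uhrf1 window on the plus strand at chr17:56304103-56304160, with its octamer at -185. The promoters of Rpa3, Cdc45, Rfc1 and Dut, the members called between cell types below, held no octamer in the window searched.

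Some arrays stood apart before any comparison was made. The LSK-Dot array K1272 had an upper quartile of 6.18 on the log2 scale and a mean Spearman correlation of 0.65 with the rest of its group over all genes, while the other LSK-Dot arrays had correlations of 0.87 to 0.90. The GMP-Dot arrays K1190 and K1272 differed from each other by a median of 0.20 on the log2 scale, against 0.38 to 0.67 for the other pairs in that group. The Dot1l probe set of the highest mean had log2 levels of 6.22 ± 0.42 (SD, n = 4) in GMP-Dot, 6.74 ± 0.16 (n = 5) in GMP-Control, 6.38 ± 0.35 (n = 6) in LSK-Dot and 6.48 ± 0.30 (n = 6) in LSK-Control, and its position relative to the deletion is not stated, so that it does not check the genotypes. The 8 GMP markers, among them Mpo and Elane, had a mean log2 level per array of 10.63 to 11.27 in GMP-Dot and 11.06 to 11.67 in GMP-Control. In LSK-Dot they lay at 7.93 to 10.14, against 7.87 to 9.08 in LSK-Control. The 7 measured LSK markers, among them Kit, Flt3 and Hlf, lay at 5.08 to 8.65 in LSK-Dot, against 8.38 to 8.83 in LSK-Control, so that the 2 LSK groups did not hold the same marker levels.

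Averaged over the 50 genes, replication transcripts were high on 4 LSK-Dot arrays and low on a single one. The mean deviation of the members from their 21-array means was +0.58 on LSK-Dot K1091, +0.42 on K1190, +0.50 on K1421 and +0.52 on K1422. It was -0.12 on K1359 and -1.45 on K1272. The LSK-Control arrays lay between -0.23 and +0.13, below those 4 LSK-Dot arrays and above K1272. The GMP-Dot arrays had deviations of +0.28, +0.35, +0.12 and -0.27, and the GMP-Control arrays of -0.62, +0.43, -0.69, +0.0014 and +0.11, so that these groups overlapped widely. K1272 was the lowest of all 21 arrays for 20 of the 50 members and the lowest of its group for 38. The same counts were not made over all genes, so they do not show a fall particular to the members. Over all genes the mean deviation of K1272 was -0.05. The members were brighter than most genes: 46 of the 50 reached a mean log2 level of 7 in at least 1 group, against 6551 of 18194 genes. The shares higher and the medians over all genes given below were not taken among genes of like brightness. Other cell cycle lists, described below, shared part of the members' pattern. On LSK-Dot K1272 other replication genes and E2F and pocket protein genes stood at -1.13. Mitosis genes stood at -1.27, and quiescence genes and CDK inhibitors at +0.37. On the 4 arrays with high members, mitosis genes lay at +0.50 to +1.22, against -0.80 to +0.17 in LSK-Control. Other replication genes lay at +0.31 to +0.53, against -0.17 to +0.13, while E2F and pocket protein genes overlapped the controls. On K1359 mitosis genes lay at +0.10 and other replication genes at -0.05, both within the control ranges. The 4 arrays were picked by the levels of the members, so these ranges are a description and not a test.

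**Figure D1:**
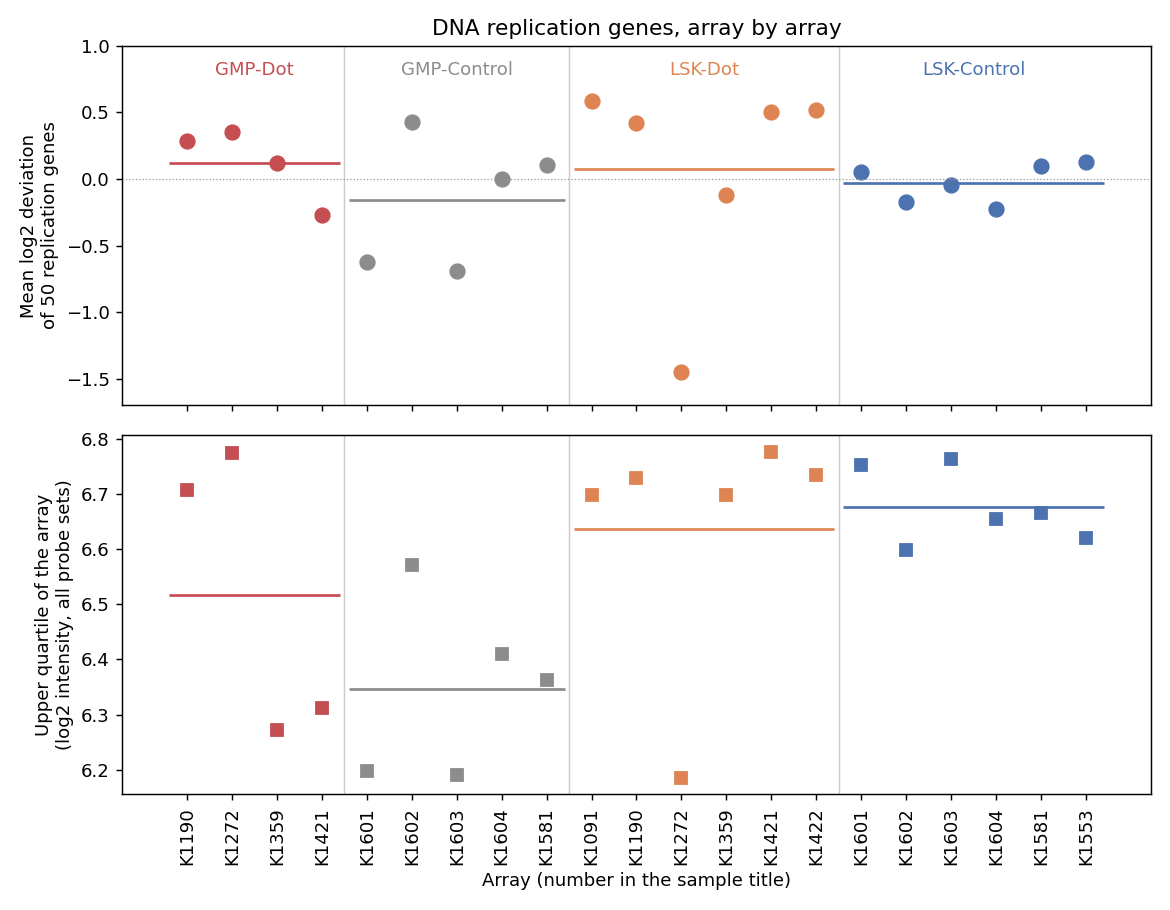
Mean deviation of the 50 DNA replication genes (log2, upper panel) and upper quartile of log2 intensity over all probe sets (lower panel) on each of the 21 arrays, grouped as GMP-Dot, GMP-Control, LSK-Dot and LSK-Control, with a line at each group's mean. In the upper panel the LSK-Dot array K1272 lies at -1.45 and 4 other LSK-Dot arrays lie between +0.42 and +0.58, while the LSK-Control arrays lie between -0.23 and +0.13.

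The marker levels of the LSK-Dot arrays differed as well. On K1091, K1190, K1421 and K1422, the arrays with high members, the GMP markers averaged 10.14, 10.02, 9.74 and 9.60 and the LSK markers 7.46, 6.21, 7.77 and 7.42. The 5 measured of 7 monocyte and macrophage markers averaged 7.18, 7.12, 7.17 and 6.83 there, 4.37 on K1359 and 4.87 on K1272, against 4.61 to 6.94 in LSK-Control. K1359, whose members lay near the controls, had GMP markers at 7.93 and LSK markers at 8.65, both within the LSK-Control range. On K1272 the GMP markers averaged 9.30, the LSK markers 5.08 and the erythroid markers 7.18, where the highest LSK-Control array had 6.31 for erythroid markers. The T cell markers of K1272 averaged 5.22 and its megakaryocyte markers 7.38, where the highest LSK-Control arrays had 4.28 and 6.91. On the 4 arrays with high members, T cell, megakaryocyte and erythroid markers did not exceed the highest LSK-Control array. The late neutrophil, B cell and eosinophil, basophil and mast cell markers of K1272 lay within the LSK-Control range. Its endothelial and stromal markers, at 4.88, lay below it. Its GMP and LSK markers lay on the same side of the controls as on those 4 arrays, while its members were low. The part of these differences in the results on the members was not tested. Because each sample is a sorted population measured in bulk, fewer cycling cells and less RNA per cell cannot be told apart. The quality of the array and of the sample was not tested either, on K1272, with its correlation of 0.65 with its group, or elsewhere.

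By role, the low array K1272 was lowest in strand joining and in licensing. Its mean deviation was -2.65 for single-strand binding and Okazaki fragment joining (Rpa1 to Rpa3, Lig1, Fen1) and -2.27 for licensing and the MCM helicase. It was -1.61 for the clamp and its loader, -1.53 for origin firing and -1.03 for the origin recognition complex. Chromatin at the fork stood at -0.89, the polymerases and primase at -0.82 and the nucleotide supply genes at -0.62. Mcm6, a subunit of the helicase ring, had log2 levels of 7.96 on K1272 and 12.28 to 12.62 on the other LSK-Dot arrays, against a lowest value of 12.20, a median of 12.55 and a highest value of 12.79 in LSK-Control. Lig1, the ligase that seals Okazaki fragments, had 5.85 on K1272 and 9.40 to 10.65 on the other LSK-Dot arrays, against 9.49 to 10.47 in LSK-Control. Tk1, the thymidine kinase of the salvage pathway, ran the other way, with 10.51 on K1272 and 6.11 to 9.24 on the other LSK-Dot arrays. Pold2, of polymerase delta, was also highest there, with 9.97 on K1272 and 6.61 to 8.04 on the other LSK-Dot arrays. The means of all 8 roles were therefore low, but not every member was.

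**Figure D2:**
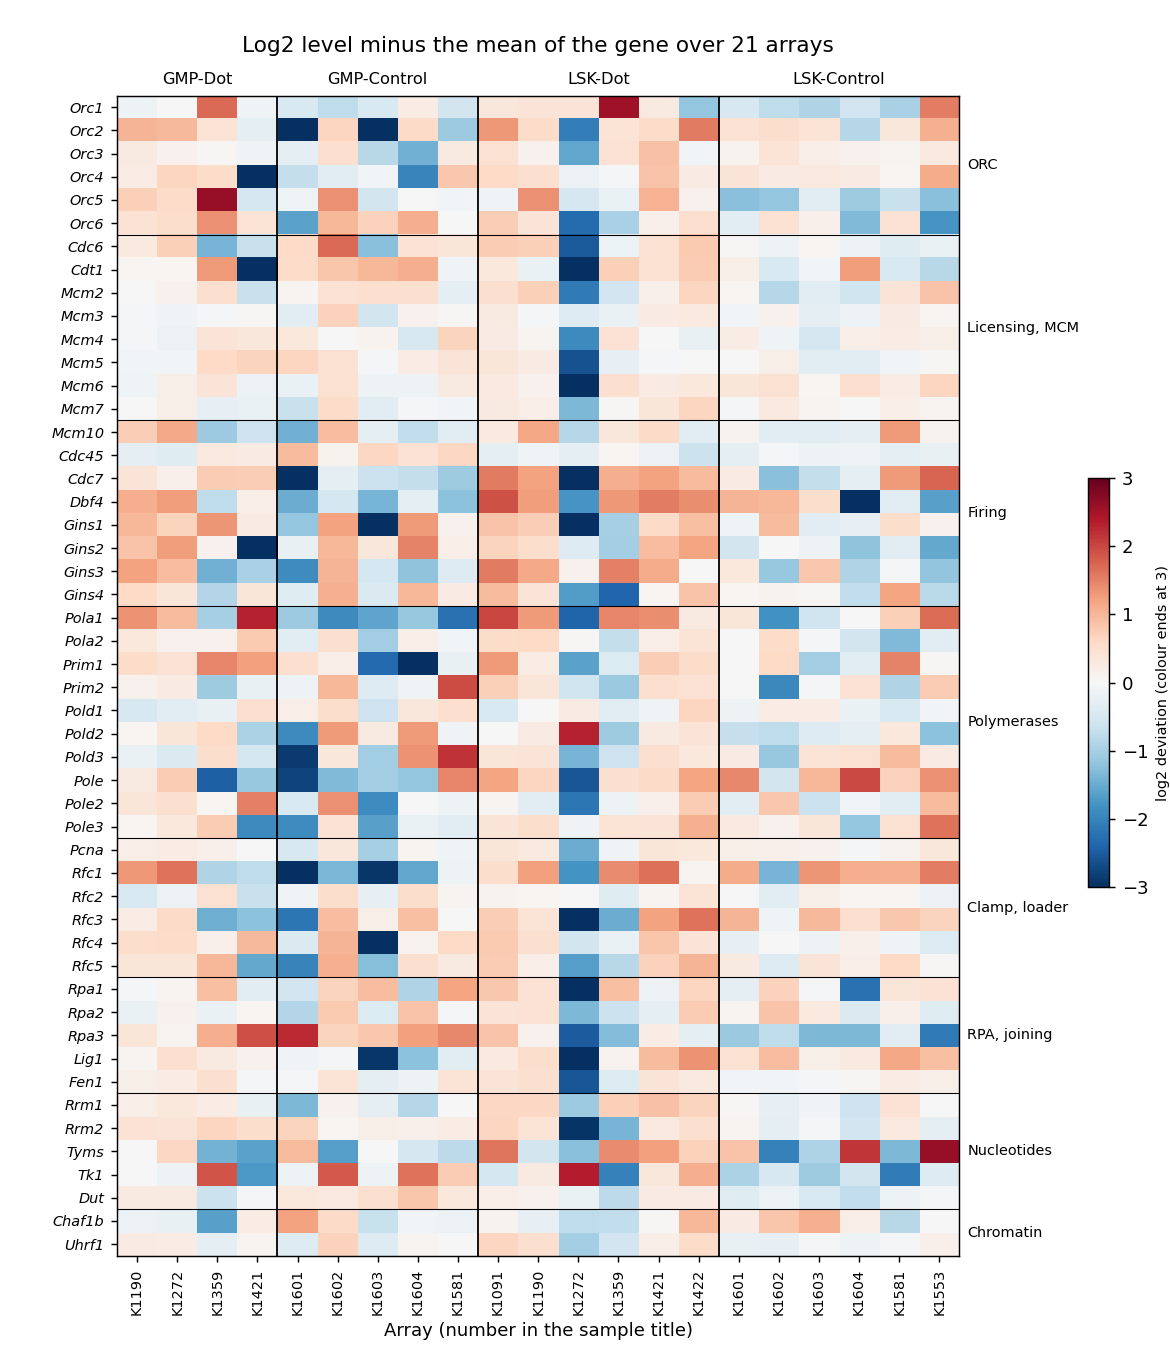
Deviation (log2) of each of the 50 members, in rows ordered by role, from its mean over 21 arrays, with arrays in columns grouped as GMP-Dot, GMP-Control, LSK-Dot and LSK-Control and colours ending at 3 in either direction. The column of LSK-Dot K1272 is low in most rows, with Tk1 among the exceptions.

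The first comparison asked whether loss of Dot1l changed the replication genes in LSK cells. No member passed the test: limma called 0 of 50 at an adjusted p under 0.05, and 0 of all 18194 genes (0%). An unadjusted p under 0.05 was reached by 2 members, both higher in LSK-Dot, where 5.61% of all genes reached it. Of the 50, 26 (52%) were higher in LSK-Dot, against 58.4% of all genes, and the median log2 difference was 0.04, against 0.06 over all genes. The groups did not overlap for 0 members and for 0.330% of all genes.

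Among the initiation genes, Orc5, a subunit of the origin recognition complex, had the smallest p. Its log2 levels were 5.44, 5.96 and 7.32 (lowest, median, highest of 6) in LSK-Dot, against 4.69, 4.83 and 5.61 in LSK-Control. The groups overlapped through K1272, and the other LSK-Dot arrays were above every control. The difference was 1.24 ± 0.44 (SE) with an adjusted p of 0.642. Gins3, a subunit of the GINS complex, had 6.41, 7.53 and 7.98 in LSK-Dot, against 5.24, 5.93 and 7.22 in LSK-Control. These ranges overlapped, and the difference was 1.27 ± 0.53 with an adjusted p of 0.788. Dbf4, the activator of the Cdc7 kinase, had 4.63, 7.75 and 8.31 in LSK-Dot, against 3.38, 6.50 and 7.41 in LSK-Control. Of the LSK-Dot arrays only K1272 was within the control range. The difference was 1.34 ± 0.67 with an adjusted p of 0.904.

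In the licensing and MCM group 2 of 8 members were higher and none was called, and the largest difference was -0.83 ± 0.55 for Mcm6, which rests on K1272. Mcm3 differed by 0.05 ± 0.20 and Mcm7 by -0.08 ± 0.27. For the polymerases and primase, 6 of 10 were higher, led by Pold2, a small subunit of polymerase delta, at 0.86 ± 0.52, or 0.47 ± 0.47 without K1272. The clamp and its loader had 2 of 6 higher, with Rfc3 at -0.93 ± 0.77 and Pcna at -0.19 ± 0.28. Without K1272 these were -0.14 ± 0.57 and 0.10 ± 0.19. In the strand-joining group 2 of 5 were higher, with Rpa3, the small subunit of the single-strand binding protein, at 0.71 ± 0.48. In the nucleotide group 4 of 5 were higher, with Tk1 at 1.18 ± 0.63, or 0.75 ± 0.60 without K1272. At the fork's chromatin Chaf1b, a subunit of the histone chaperone CAF-1, differed by -0.35 ± 0.39. None of these passed the test.

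Leaving out K1272 moved the members to one side without bringing any past the threshold. In that fit 43 of 50 (86%) were higher in LSK-Dot, against 45.2% of all genes, and the median log2 difference was 0.30, against -0.03 over all genes. All 6 members of the origin recognition complex and all 5 nucleotide supply genes were higher, as were 7 of 8 in licensing and the MCM helicase and 7 of 8 in origin firing. The largest difference among the remaining ones below 0 was -0.22, for Chaf1b. The called count remained 0 of 50, as over all genes (0%), and 6 members had an unadjusted p under 0.05, all higher, where 5.53% of all genes had one.

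For 3 members the 5 remaining LSK-Dot arrays lay above all 6 controls, where 0.973% of all genes had groups that did not overlap. They were Orc5, Dbf4 and Rrm1. Rrm1, the large subunit of ribonucleotide reductase, had log2 levels of 11.21, 11.19, 11.30, 11.45 and 11.24 on these LSK-Dot arrays, against 9.96, 10.52 and 11.003 in LSK-Control. The LSK-Dot values were close together and all above the controls. The difference was 0.78 ± 0.24 with an adjusted p of 0.459. Dbf4 differed by 1.88 ± 0.59 (adjusted p = 0.506) and Orc5 by 1.40 ± 0.45 (adjusted p = 0.521). The other members with an unadjusted p under 0.05 were Rpa3 at 1.11 ± 0.41, Gins3 at 1.42 ± 0.55 and Pola1 at 1.23 ± 0.56. Mcm6 differed by -0.08 ± 0.16 without K1272.

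Other genes of the cell cycle gave the following counts in LSK cells. Of 46 measured other replication genes, such as fork protection and nucleotide factors, 26 were higher and 0 were called, with a median of 0.05. Without K1272, 37 of them were higher, with a median of 0.31, beside the 43 of 50 members with a median of 0.30. Of 31 mitosis genes 26 were higher with a median of 0.53, and 0 were called. The smallest adjusted p among them was 0.0879, for Ube2c, the ubiquitin carrier of the anaphase-promoting complex, at 1.43 ± 0.28. Without K1272, 31 of 31 mitosis genes were higher, with a median of 0.81 and 0 called. Of 13 E2F and pocket protein genes 4 were higher, or 6 without K1272, and of 12 quiescence genes and CDK inhibitors 8 were higher, or 4 without it. Cdkn1c, an inhibitor associated with resting stem cells, differed by 1.14 ± 0.36 (adjusted p = 0.561).

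**Figure D3:**
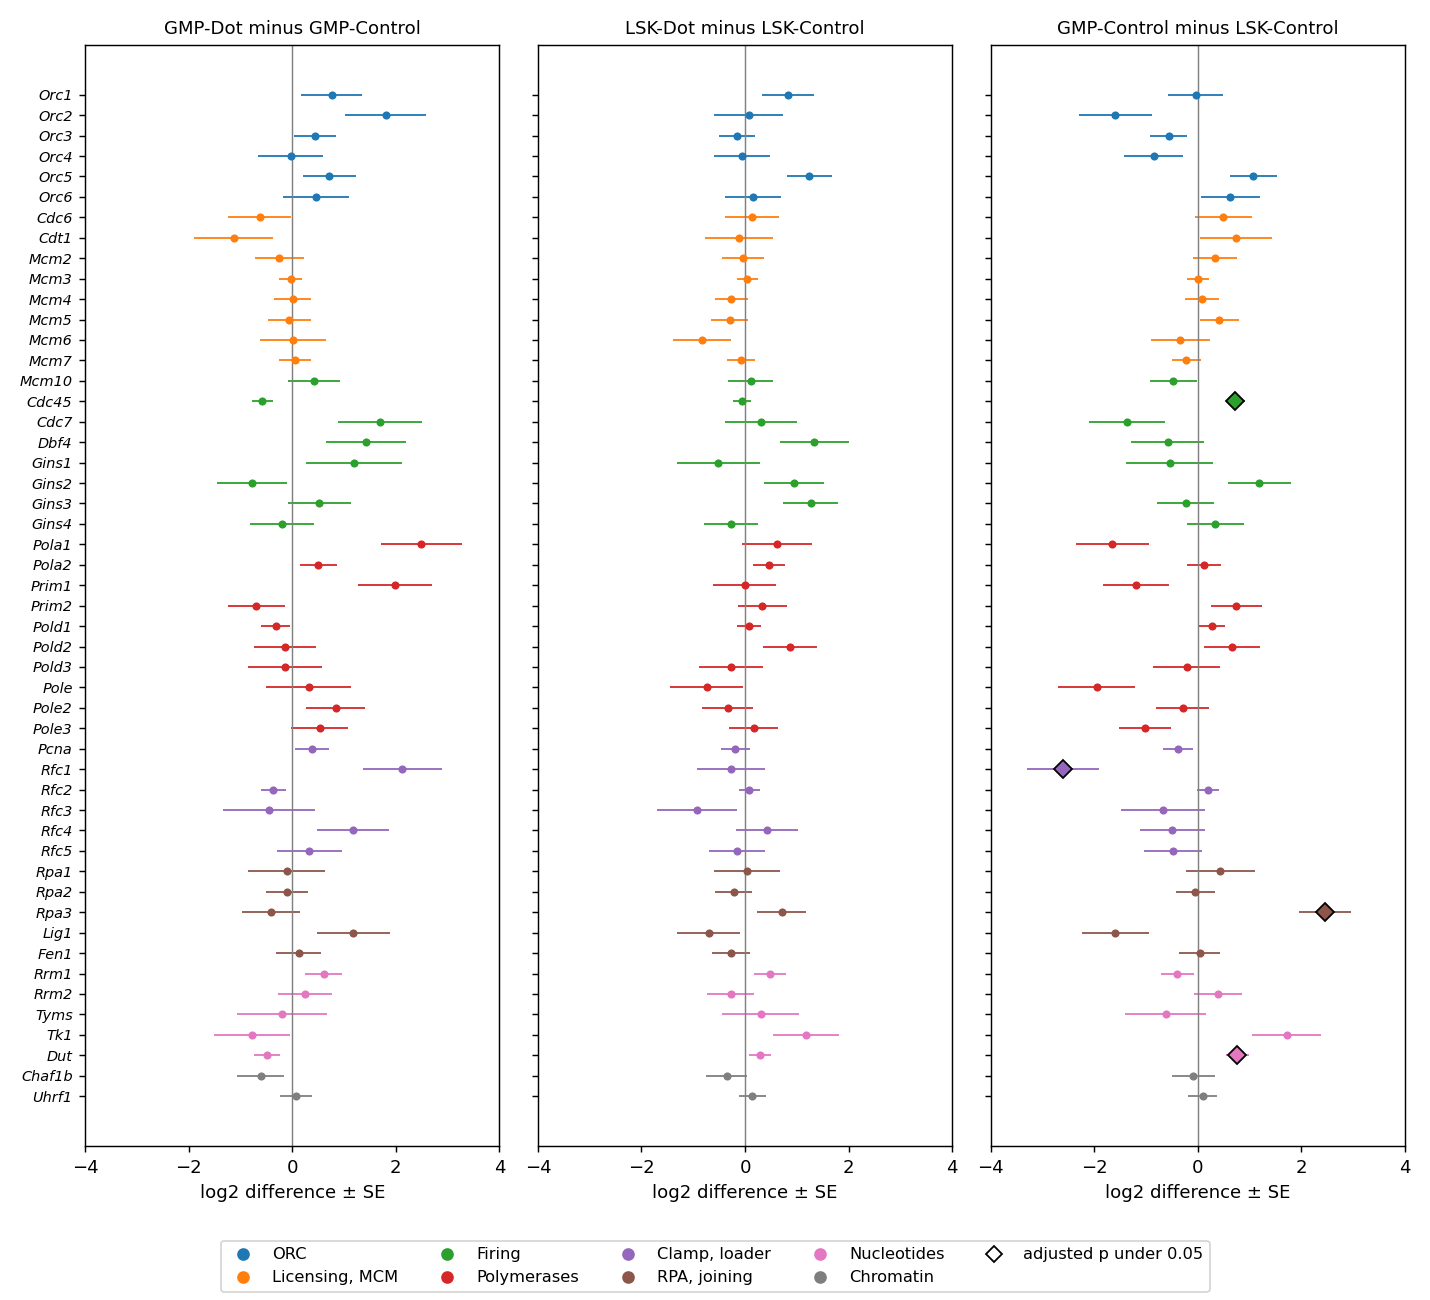
Log2 difference with its SE for each member in 3 comparisons, from left to right GMP-Dot minus GMP-Control, LSK-Dot minus LSK-Control and GMP-Control minus LSK-Control, with diamonds for an adjusted p under 0.05. Diamonds appear only in the third panel, at Rpa3, Cdc45, Rfc1 and Dut, and the widest differences of the first panel are those of Pola1, Rfc1 and Prim1.

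The second comparison asked the same in GMP. Again no member passed the test: limma called 0 of 50, against 26 of all 18194 genes (0.143%). Of the members 28 (56%) were higher in GMP-Dot, against 34.3% of all genes. The members are brighter than most genes, and the part of brightness in this contrast was not tested. The median log2 difference was 0.06, against -0.20 over all genes, and its sign turned when the upper quartile of each array entered the fit, with 18 of 50 higher and a median of -0.25. That covariate moved the median of all genes to -0.07. Its slope is shared by all arrays, LSK-Dot K1272 among them. An unadjusted p under 0.05 was reached by 5 members that were higher and 1 that was lower, where 13.9% of all genes reached it. The groups did not overlap for 3 higher members (Pola1, Cdc7 and Lig1) and 1 lower member (Dut), against 4.78% of all genes.

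Pola1, the catalytic subunit of the polymerase that starts each strand, differed most. Its log2 levels were 8.03, 7.62, 5.68 and 8.99 in GMP-Dot, against 5.58, 4.77, 5.10, 5.54 and 4.45 in GMP-Control. Every GMP-Dot array was above every control, K1359 by a small margin. The difference was 2.49 ± 0.78 with an adjusted p of 0.205. The LSK-Dot array K1272 enters this test through the shared estimate of spread, and without it the adjusted p was 0.0431, and Pola1 was then the only member among the 2.14% of genes called. With all arrays and the upper quartile as a covariate, Pola1 differed by 1.97 ± 0.77 (adjusted p = 0.312). The dimmer Pola1 probe set differed by -0.06 ± 0.28. In LSK cells the chosen probe set differed by 0.61 ± 0.67.

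Prim1, the catalytic subunit of primase, had log2 levels of 9.27, 9.16, 10.18 and 9.95 in GMP-Dot, against 9.21, 8.93, 6.39, 5.27 and 8.50 in GMP-Control. The groups overlapped at K1601, and the low controls were K1603 and K1604. The difference was 1.98 ± 0.71 with an adjusted p of 0.248, and a second Prim1 probe set differed by 0.84 ± 0.97. Rfc1, the large subunit of the clamp loader, had 9.04, 9.36, 6.83 and 6.98 in GMP-Dot, against 4.66, 6.38, 4.82, 6.18 and 7.59 in GMP-Control. The close pair K1190 and K1272 was highest and K1581 overlapped with the other GMP-Dot arrays. The difference was 2.13 ± 0.76 with an adjusted p of 0.249. With the upper quartile as a covariate, Rfc1 differed by 1.24 ± 0.52 (adjusted p = 0.360). The 2 other Rfc1 probe sets differed by 0.40 ± 0.38 and 0.58 ± 0.39.

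Cdc45, a part of the active helicase, was the member with the smallest p on the lower side. Its log2 levels were 6.16, 6.09, 6.74 and 6.70 in GMP-Dot, against 7.40, 6.57, 7.08, 6.88 and 7.07 in GMP-Control. The groups overlapped through the control array K1602. The difference was -0.58 ± 0.20 with an adjusted p of 0.246, and the other Cdc45 probe set differed by -0.39 ± 0.36. Cdc7, the kinase that triggers the loaded helicase, had 8.08, 7.84, 8.45 and 8.42 in GMP-Dot, against 4.46, 7.41, 7.05, 6.96 and 6.62 in GMP-Control. All GMP-Dot arrays were above the controls, and the difference of 1.69 ± 0.81 had an adjusted p of 0.358.

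In licensing and the MCM helicase 3 of 8 members were higher. The differences of Mcm3 to Mcm7 ran from -0.06 (Mcm5) to 0.05 (Mcm7), with SEs of 0.23 to 0.64, and that of Mcm2 was -0.25 ± 0.47. With the upper quartile as a covariate 0 of 8 were higher and the group's median was -0.46, against -0.04 without it. In that fit 2 of the 8 had an unadjusted p under 0.05, both lower, and the smallest adjusted p was 0.0798, for Cdc6 at -1.41 ± 0.31. Without the covariate Cdc6 differed by -0.63 ± 0.60 (adjusted p = 0.596). The covariate's slope is shared by all 21 arrays, among them LSK-Dot K1272, with an upper quartile of 6.18 and Cdc6 at 5.70. Without the covariate the largest difference of the licensing group was -1.13 ± 0.77, for Cdt1. It came with a level of 6.40 on GMP-Dot K1421. The other GMP-Dot arrays had 9.69, 9.69 and 10.90, and GMP-Control had 9.54 to 10.72. In the origin recognition complex 5 of 6 were higher, led by Orc2 at 1.81 ± 0.78 (adjusted p = 0.321). Of the polymerases and primase 6 of 10 were higher, and of the clamp and its loader 4 of 6. The strand-joining genes had 2 of 5 higher, with Lig1 at 1.18 ± 0.71, and the nucleotide genes 2 of 5, with Tk1 at -0.78 ± 0.73. Chaf1b differed by -0.61 ± 0.46.

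The GMP-Control arrays differed in upper quartile, and its part in the differences above was not tested. GMP-Control K1601 and K1603, which had the lowest members' means of their group, also had its lowest upper quartiles, 6.20 and 6.19, against 6.36 to 6.57 on the other GMP-Control arrays. The GMP-Dot arrays had upper quartiles of 6.71, 6.77, 6.27 and 6.31, the first 2 being the close pair K1190 and K1272. With the upper quartile as a covariate 0 members were called, where 0.198% of all genes were.

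The other lists gave 0 calls in GMP with all arrays. Without LSK-Dot K1272, 2 other replication genes, 1 E2F or pocket protein gene and 3 mitosis genes were called, all higher in GMP-Dot. In that fit 2.14% of all genes were called. Of 31 mitosis genes 25 were higher in GMP-Dot, with a median log2 difference of 0.92, or 0.39 with the upper quartile as a covariate. Kif11, a motor of the spindle, differed by 2.83 ± 0.81 (adjusted p = 0.175) and Bub1, a checkpoint kinase, by 2.63 ± 0.77 (adjusted p = 0.175). Of 46 other replication genes 29 were higher, with a median of 0.33, which became 23 and 0.01 with that covariate. Topbp1, which activates the checkpoint kinase ATR, differed by 2.20 ± 0.62 (adjusted p = 0.171), and Rnaseh2a, the catalytic subunit of the enzyme that removes ribonucleotides from DNA, by -0.99 ± 0.26 (adjusted p = 0.154). Of 12 quiescence genes and CDK inhibitors 2 were higher.

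**Figure D4:**
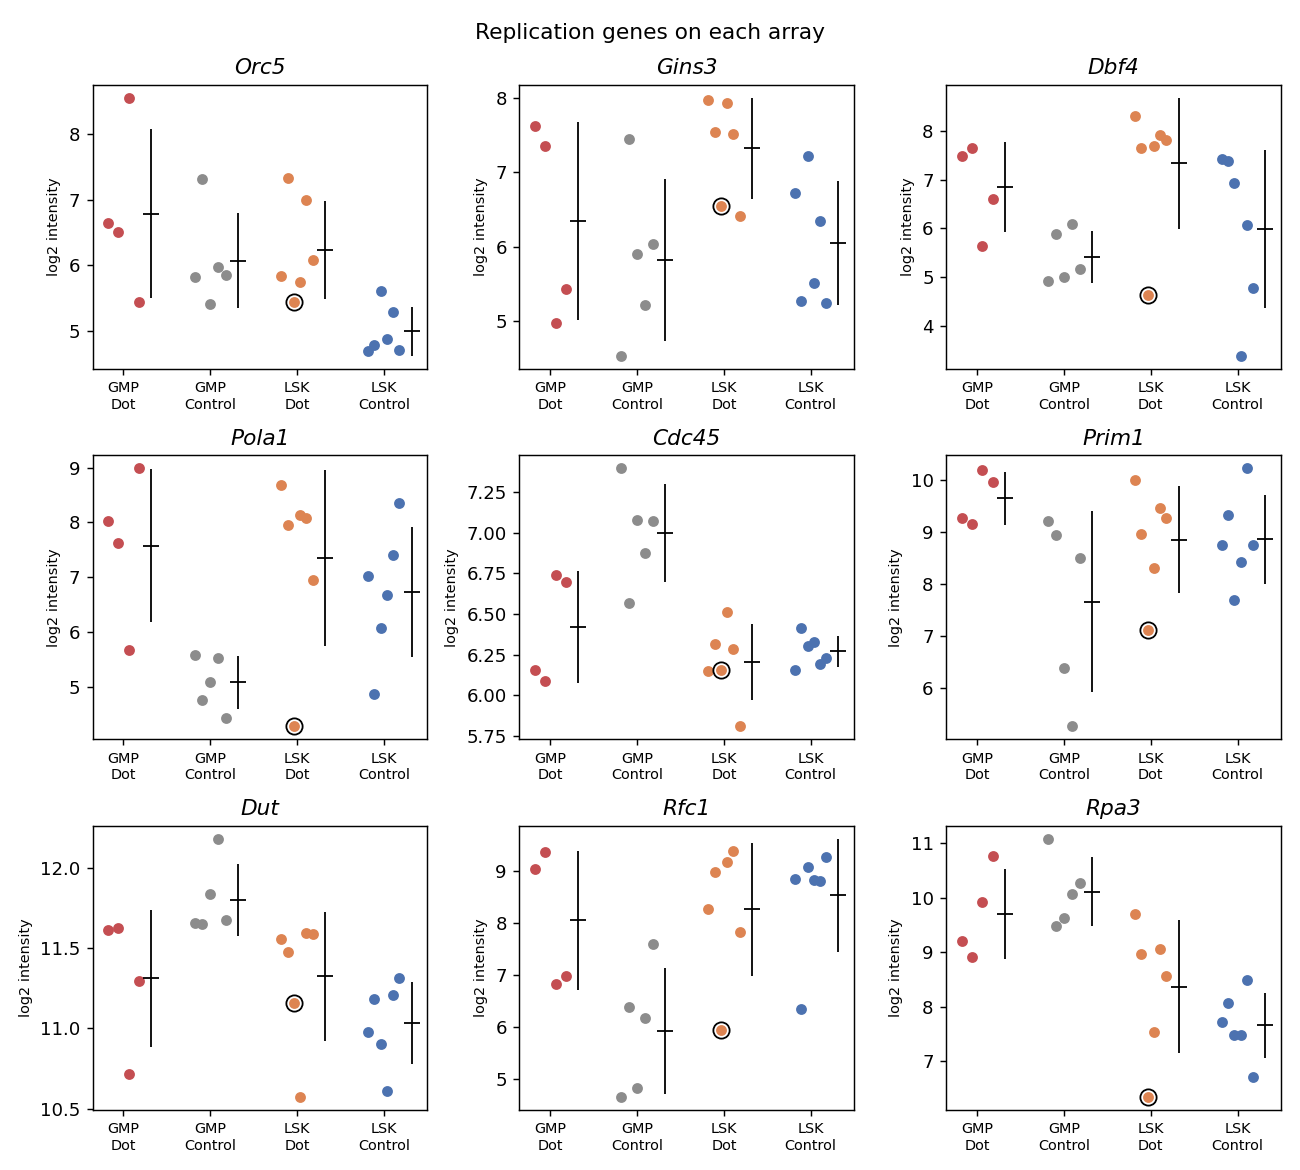
Log2 level on every array of the members with the smallest p in the comparisons, grouped as GMP-Dot, GMP-Control, LSK-Dot and LSK-Control, with a dash and bar for the mean ± SD and a black circle around LSK-Dot K1272. Rpa3 is higher on all GMP-Control arrays than on any LSK-Control array, and Pola1 is higher on all GMP-Dot arrays than on any GMP-Control array.

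The third comparison asked whether the effect of deletion differed between the cell types, as the GMP effect minus the LSK effect. Limma called 0 of 50 members, against 6 of all genes (0.0330%). An unadjusted p under 0.05 was reached by 3 members, where 13.6% of all genes reached it. Of the members 30 were above 0 and the median was 0.12, against -0.26 over all genes, but without K1272 only 18 were above 0 and the median was -0.14. With the upper quartile as a covariate 15 were above 0 and the median was -0.30.

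The smallest p belonged to Dut, the enzyme that keeps uracil out of DNA by breaking down dUTP. Its log2 levels were 11.61, 11.63, 10.71 and 11.30 in GMP-Dot, against 11.66, 11.65, 11.84, 12.18 and 11.67 in GMP-Control. In LSK-Dot it had 10.57, 11.52 and 11.59 (lowest, median, highest), against 10.61, 11.08 and 11.31 in LSK-Control. The GMP-Dot arrays were all below the GMP controls, the nearest of them by a small margin, while most LSK-Dot arrays were above the LSK controls. The difference of the effects was -0.78 ± 0.33 with an adjusted p of 0.334, made up of -0.49 ± 0.25 in GMP and 0.29 ± 0.21 in LSK. A second, much dimmer Dut probe set gave 1.39 ± 0.79.

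Rfc1 had a difference of effects of 2.39 ± 1.01 (adjusted p = 0.337) and Prim1 of 1.99 ± 0.94 (adjusted p = 0.360). In LSK cells the effect was -0.27 ± 0.66 for Rfc1 and -0.01 ± 0.61 for Prim1. By role, the largest differences of effects elsewhere were 1.74 ± 1.03 for Orc2, -1.02 ± 1.02 for Cdt1, -1.74 ± 0.89 for Gins2, 1.88 ± 0.94 for Lig1, -1.96 ± 0.97 for Tk1 and -0.26 ± 0.60 for Chaf1b. Without LSK-Dot K1272 these were, in the same order, 1.25 ± 0.93, -1.61 ± 0.83, -1.88 ± 0.92, 1.19 ± 0.60, -1.54 ± 0.89 and -0.39 ± 0.61. None passed the test.

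The last comparison set GMP-Control against LSK-Control and was the only one in which members passed the test. Rpa3, Cdc45 and Dut were higher in GMP-Control and Rfc1 was lower, so that limma called 4 of 50 members, against 12.0% of all genes. An unadjusted p under 0.05 was reached by 10 members, 5 in each direction, against 33.8% of all genes. The groups did not overlap for 4 higher members and 1 lower member, against 14.7% of all genes. Of the members 23 (46%) were higher, with a median of -0.06, against 65.8% and 0.29 over all genes, which were not matched to the members in brightness. With the upper quartile as a covariate the median turned to 0.56, 41 of 50 were higher, and the median of all genes was 0.01. The upper quartiles of the control groups did not overlap, at 6.19 to 6.57 in GMP-Control and 6.60 to 6.76 in LSK-Control. The adjustment therefore rests on a slope shared by all 21 arrays, with LSK-Dot K1272 at 6.18 among them. It cannot cleanly tell the upper quartile from cell type. In that fit Cdc6, Rpa3 and Dut were called higher and 0 members lower, where 3.26% of all genes were called. Without LSK-Dot K1272 in the shared spread 9 members were called, 4 higher and 5 lower, against 30.4% of all genes.

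Rpa3 rose most. Its log2 levels were 11.08, 9.49, 9.63, 10.06 and 10.27 in GMP-Control, against 6.71, 7.59 and 8.48 (lowest, median, highest) in LSK-Control. Every GMP-Control array was above the highest LSK-Control array. The difference was 2.45 ± 0.50 with an adjusted p of 0.00463. In LSK-Dot it had 6.34, 8.77 and 9.69 and in GMP-Dot 9.20, 8.91, 9.92 and 10.77.

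Cdc45 rose by less but with little spread. It had log2 levels of 7.40, 6.57, 7.08, 6.88 and 7.07 in GMP-Control, against 6.15, 6.27 and 6.41 in LSK-Control. The groups did not overlap, and all LSK-Control arrays lay within a narrow band. The difference was 0.73 ± 0.18 with an adjusted p of 0.0170, and the other probe set differed by 0.58 ± 0.33. Settings that ended the call included the upper quartile as a covariate (adjusted p = 0.157) and trended moderation (adjusted p = 0.0649). Dut also rose, by 0.77 ± 0.22 (adjusted p = 0.0322), with no overlap between the control groups whose levels are given above, but its dimmer probe set differed by -0.15 ± 0.54. Settings that ended this call included arrays centred on their medians (adjusted p = 0.0582) and fits without GMP-Control K1603 or K1604 or LSK-Control K1601, K1603 or K1604 (adjusted p between 0.0626 and 0.0769).

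Rfc1 was the called member that fell. It had 4.66, 6.38, 4.82, 6.18 and 7.59 in GMP-Control, against 6.34, 8.84 and 9.27 in LSK-Control. The groups overlapped through LSK-Control K1602, the lowest of its group. The difference was -2.60 ± 0.69 with an adjusted p of 0.0211, and the 2 other probe sets differed by -0.57 ± 0.35 and -1.03 ± 0.35. Settings that ended the call included the upper quartile as a covariate (-0.88, adjusted p = 0.423) and fits without GMP-Control K1601 (adjusted p = 0.0525) or K1603 (adjusted p = 0.0612), the dim arrays described above. The GMP-Control arrays enter this comparison and that of GMP-Dot with GMP-Control, so that the differences of Rfc1, -2.60 here and 2.13 there, share them. The same holds for Cdc45 with 0.73 and -0.58, for Dut with 0.77 and -0.49, and for Pola1 with -1.65 and 2.49.

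Licensing and the MCM helicase had 0 of 8 called between the control groups. Mcm3 differed by 0.01 ± 0.21 and Mcm4 by 0.09 ± 0.33, and the largest difference was 0.74 ± 0.70 for Cdt1. All 8 were higher in GMP-Control once the upper quartile entered the fit, with a median of 0.89 against 0.21 without it, and 4 had an unadjusted p under 0.05. Cdc6, which helps to load the helicase, was then at 2.01 ± 0.33 (adjusted p = 0.00365), against 0.50 ± 0.55 (adjusted p = 0.507) without the covariate. The control groups did not overlap in that covariate, so the limit stated above holds for these values too. The origin recognition complex had 0 of 6 called, with Orc2 at -1.59 ± 0.70 (adjusted p = 0.123). In origin firing Cdc7 differed by -1.36 ± 0.73 (adjusted p = 0.188), and Pole, the catalytic subunit of polymerase epsilon, led its group of 10, of which 0 were called, at -1.95 ± 0.74 (adjusted p = 0.0831). Lig1 differed by -1.59 ± 0.64 (adjusted p = 0.0984) and Tk1 by 1.72 ± 0.66 (adjusted p = 0.0863), both with groups that did not overlap. With the covariate Orc2 was at 0.04, Cdc7 at -0.14, Pole at -0.28 and Lig1 at -0.31, and Tk1 at 1.32. Pcna differed by -0.38 ± 0.29 and Uhrf1 by 0.09 ± 0.28.

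Among the other lists, 4 of 46 other replication genes were called higher and 6 lower in GMP-Control, where 12.0% of all genes were called. Rnaseh2a rose by 1.21 ± 0.24 (adjusted p = 0.0036) and Rnaseh2c, a further subunit of that enzyme, by 1.92 ± 0.47 (adjusted p = 0.0132), while Mcm9, a relative of the MCM subunits with a role in repair, fell by 2.59 ± 0.56 on the log2 scale (adjusted p = 0.0067). Of 13 E2F and pocket protein genes 0 were called higher and 2 lower. Rbl2, the pocket protein p130 of resting cells, fell by 3.39 ± 0.54 (adjusted p = 0.000661) and Tfdp2, a partner of E2F factors, by 1.93 ± 0.51 (adjusted p = 0.0206). Among 31 mitosis genes the only call on the higher side was Ube2c at 1.02 ± 0.30 (adjusted p = 0.0331). The only call on the lower side was Kif11 at -3.75 ± 0.73 (adjusted p = 0.00341). Of 12 quiescence genes and CDK inhibitors 0 were called higher. Foxo3, a transcription factor of stem cell quiescence, was the only one called lower, at -1.93 ± 0.48 (adjusted p = 0.0153). With the upper quartile as a covariate Rnaseh2a at 1.33 (adjusted p = 0.0141) and Rbl2 at -2.28 (adjusted p = 0.0213) were called. The calls of Mcm9 at -1.61 (adjusted p = 0.150), Rnaseh2c at 1.45 (adjusted p = 0.165) and Tfdp2 at -1.09 (adjusted p = 0.307) ended. So did those of Kif11 at -2.08 (adjusted p = 0.0936), Ube2c at 1.06 (adjusted p = 0.122) and Foxo3 at -0.85 (adjusted p = 0.303).

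Different probe sets of a member often disagreed. Of the 50 members 39 had more than 1 probe set, and the 62 probe sets not chosen had the same sign as the chosen one in 28 cases for LSK-Dot against LSK-Control, 32 for GMP-Dot against GMP-Control, 41 for the difference of the effects and 32 for GMP-Control against LSK-Control. Orc5 and Rpa3 were measured by a single probe set each. The group means of the members lay between 4.27 and 12.96 on the log2 scale, and 49 of the 50 members reached the level of the median gene, 5.54, in at least 1 group. Orc1, the largest subunit of the origin recognition complex, did not, with means of 5.03 ± 0.90 in GMP-Dot, 4.27 ± 0.37 in GMP-Control, 5.14 ± 1.19 in LSK-Dot and 4.31 ± 0.95 in LSK-Control.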

How the data were processed

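The deposited table holds intensity values of 45101 Affymetrix mouse probe sets on 21 arrays, made by the authors with RMA per the submitters' processing notes. The values are on a linear scale, with array medians of 25.19 to 31.48. Their log2 was analysed as it stood, with nothing added or rescaled. A single gene symbol was annotated for 34958 probe sets, several for 932 and none for 9211. The first kind gave 18194 genes, of which each took its brightest probe set.

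Limma 3.58.1 (R 4.3.3) fitted 1 model to the 21 arrays with a mean for each of the 4 groups and moderated the variances. The Benjamini-Hochberg adjustment ran over 18194 genes, and calls were made at 0.05. Errors are SD over arrays or SE of the fit, and precision is limited by how few arrays there were. The members and lists were chosen with earlier results of these data known. Full values are given for called members, or for the 3 with the smallest p where fewer were called, and the member with the largest difference is named in each of 8 role groups. Members described because their groups did not overlap, because of the array K1272 or as a contrast to these were chosen after their values were seen. Alternatives changed scaling, dim-gene filters, probe set choice, moderation, weights, blocks and arrays.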

Additional observations from a re-analysis of the deposited data

Results flagged for a closer look

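Within the LSK-Dot group, array K1272 lay far from the others for the mean deviation of the 50 members, at -1.45 on the log2 scale, where the nearest other array was at -0.12. The same array lay apart for Dbf4, with a log2 level of 4.63, where the nearest other LSK-Dot array was at 7.64. In LSK-Control, array K1602 lay apart for Rfc1, at 6.34, where the nearest other array was at 8.80. By the same gap test, an extreme array was found for 17 of 50 members in LSK-Dot, K1272 being the lowest in all 17, for 6 in LSK-Control, 4 in GMP-Dot and 3 in GMP-Control. For a single gene, chance gives an extreme array in about 1 in 20 such groups. The members share the same arrays, so the 17 are not independent findings. The share over all genes was not counted, so these counts are not a result particular to the members.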

How the results depend on the processing

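Rpa3 stayed called between the control groups under every alternative run. Dut did not keep its direction there: the difference was -0.15 with the probe set of largest variance and -0.15 without _s_at, _x_at and _a_at probe sets. Its difference of effects was 0.30 with the mean of all probe sets, 1.39 with the probe set of largest variance and 1.39 without those suffixes. These settings use or include its dimmer probe set. The cause of the other changes was not tested.

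The count of called members was 0 for LSK-Dot against LSK-Control, 0 for GMP-Dot against GMP-Control, 0 for the difference of the effects and 4 for GMP-Control against LSK-Control. With array quality weights, estimated gene by gene, these became 3, 12, 7 and 9, and the weights ran to 8.89 for GMP-Dot K1190, one of the close pair, and 0.072 for LSK-Dot K1272. The last count was 2 with a minimum level of 7, 2 without the suffixed probe sets, 2 with a minimum of 2-fold and 9 with the compared groups alone. Leaving out 1 array gave 0 to 1 members in GMP, the 1 being Pola1 without LSK-Dot K1272, and 2 to 9 between the control groups, 2 without GMP-Control K1603 and 9 without LSK-Dot K1272. With the upper quartile as a covariate, in which the control groups did not overlap, the members' median between them was 0.56.

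Over all genes, the LSK count of 0 became 3 with the upper quartile as a covariate, 2 with the probe set of largest variance, 2 with every probe set and 446 with weights, and 0 to 33 on leaving out 1 array, the 33 without LSK-Dot K1359. The GMP count of 26 became 13 with centring on medians, 8 with the mean of probe sets, 14 without the suffixed ones, 17 with trended and 16 with robust moderation, 7153 with weights and 9 with GMP-Dot K1190 and K1272 averaged. Leaving out 1 array gave 9 to 390, with 390 without LSK-Dot K1272, 125 without GMP-Dot K1359 and 43 without GMP-Dot K1421. The count of 6 for the difference of effects became 3 with the mean of probe sets, 4235 with weights, 1 with the averaged pair and 1 to 21 on leaving out 1 array. The count of 2180 between the control groups became 593 with the upper quartile, 1313 with a minimum of 7, 4325 with every probe set, 6352 with weights, 4439 with the compared groups alone and 1111 to 5531 on leaving out 1 array.

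Arrays of 1 K number in both cell types did not deviate together: over 9 numbers the correlations ran from -0.40 to 0.27, 1 was above 0.1 and 0 arrays correlated best with their own number. With the K number as a random replicate block, the calls over all genes were 16 in GMP, 2 for the difference of effects and 1337 between the control groups. With a level for each number in the replicate block, they were 0 for the difference of effects and 454 between the control groups, with 1 member, Rpa3, called there. Cdc45 (adjusted p = 0.174), Dut (adjusted p = 0.144) and Rfc1 (adjusted p = 0.159) lost their calls in that fit, and Dut also with the random one (adjusted p = 0.0626).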
